A study of Mus musculus with 9 samples.

Results

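Collagen genes were followed in the mouse retina at d2 after laser-induced retinal vein occlusion (RVO). All names in the count table with the form Col, number, a, number were taken as collagen genes, and this gave 44 of the 48679 names listed. They comprised 11 genes of fibrillar collagens, 8 of basement membrane collagens (6 chains of collagen IV, Col15a1 and Col18a1) and 25 of other collagens. The choice used the gene symbol and no measured value. RNAseq counts were available for 9 samples of C57BL/6J mice 12 weeks old, with 3 samples in each of 3 groups. Each sample combined the retinas of 6 mice, so n counts pools. In the RVO group, the large veins of an eye were each closed by laser. In the control group, laser spots matched to those of the RVO eye were set away from the large vessels of the fellow eye, so that the retina was injured by laser in both groups. Mice of both laser groups had received 200 mg/kg of the photosensitizer eosin Y, and the laser was set to 50 mW, a spot of 50 µm and 2.5 s. Untreated mice received no laser treatment.

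Collagens are proteins of the extracellular matrix in which a trio of chains winds into a triple helix. Fibrillar collagens such as types I and III build the fibres of connective tissue, and types II, IX and XI build those of the vitreous and of cartilage. Collagen IV forms the sheet-like network of basement membranes, which in the retina underlie the endothelium of every vessel and the inner limiting membrane. Collagens XV and XVIII are bound to basement membranes, and a fragment of collagen XVIII, endostatin, inhibits the growth of vessels. The remaining types form beaded filaments, anchor or coat other fibrils, or span the cell membrane.

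Total counts per sample ranged from 21022997 to 28993921 in RVO, from 18897218 to 23419497 in control and from 12377572 to 15245869 in untreated eyes, and the collagen genes took 6661 to 26037 counts of a sample. Levels are given as CPM, the counts relative to the total of the sample after scaling by edgeR's TMM factors, and as CPM per kb of exon where genes are compared with each other. A level of 3 counts corresponded to between 0.0967 and 0.268 CPM, and lower levels could not be told from 0. The 6 rod marker genes summed to 43713 to 83564 CPM in all 9 samples, so the retina was present in each. RVO replicate 2 stood apart: its mean Euclidean distance over log2 CPM to the control samples was 41.9 and that to the other RVO samples 45.1, whereas RVO replicates 1 and 3 lay closer to their own group (37.2 and 31.8) than to the control group (77 and 66.5). It also held more RNA of lens genes than any other sample, with a sum of 4099 CPM over 8 lens markers, followed by control replicate 1 with 2250 CPM. The other RVO and control samples had 133 to 312 CPM and the untreated samples 2.80 to 22.1 CPM. Results that rest on these samples are therefore also given without them. RVO replicate 2 was singled out by its values, which lay near those of control eyes. Leaving it out thus tends to widen the differences between RVO and control eyes and to narrow the spread in RVO. Adjusted p-values without this sample follow from that choice and are given as description only. In whole retinas, a change in the number of cells that make a transcript and a change of its amount per cell cannot be told apart.

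**Figure D1:**
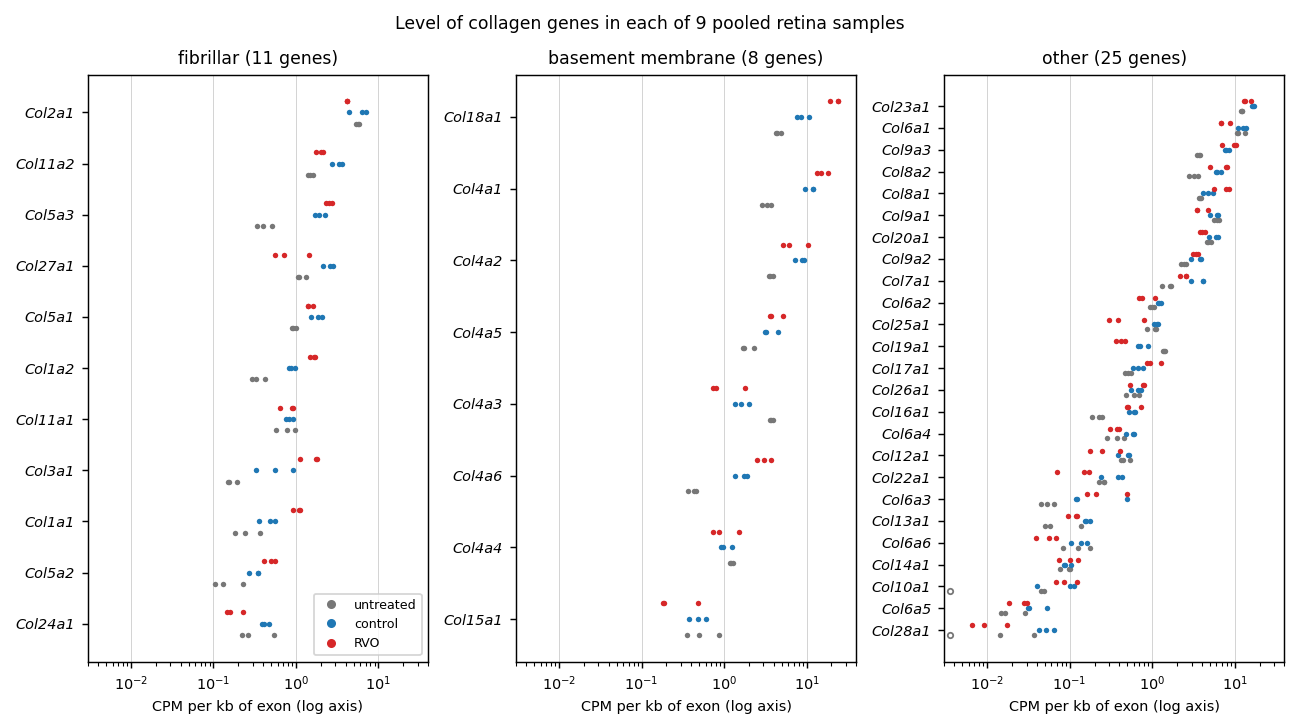
Level of each of the 44 collagen genes in the 9 samples, in CPM per kb of exon on a log axis, with genes of each class ordered by their mean and 1 point per sample in grey (untreated), blue (control) or red (RVO). Open points at the left edge are samples without counts. Col18a1, Col4a1 and Col4a6 show groups that do not overlap, whereas the points of Col11a1 or Col14a1 are intermingled.

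RVO eyes had more RNA of most basement membrane and fibrillar collagens than untreated eyes. Of the 41 collagen genes with enough counts for the test, 18 (43.9%) were higher and 5 (12.2%) were lower than in untreated eyes at an adjusted p under 0.01. Here and below, adjusted p-values come from the quasi-likelihood test in edgeR with Benjamini-Hochberg adjustment, and log2 fold changes are given ± standard error. Over all 16380 genes tested, 27.4% were higher, 24.6% were lower and 52.1% passed the test in either direction. Basement membrane collagens had 5 genes higher and 1 lower of 8, fibrillar collagens had 6 higher and 1 lower of 11, and other collagens had 7 higher and 3 lower of 22. The median log2 fold change was 1.03, 0.63 and 0.15 in these classes, 0.37 over all 41 genes and 0.01 over all genes tested. Values of RVO and untreated samples did not overlap for 21 genes that were higher and 10 that were lower in RVO. For all genes these shares were 37.8% and 35.5%, respectively. When libraries were scaled by their total counts only, 21 genes were higher and 2 lower, which moved the share of higher genes among those that passed from 78.3% to 91.3%, and over all genes that passed from 52.7% to 68.5%. Without RVO replicate 2 the number of higher genes was again 18 and that of lower genes 11. The share of all genes that passed in either direction then rose from 52.1% to 64.4%, so that calls rose over all genes.

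Laser treatment between the vessels was followed by a similar number of changes. In control as compared to untreated eyes, 19 of 41 collagen genes were higher and 2 were lower by the same test (27.2% and 25.2% of the 16066 genes tested, 52.4% in either direction). These were 5 higher and 1 lower of 8 basement membrane, 7 higher of 11 fibrillar and 7 higher and 1 lower of 22 other collagen genes, with a median log2 fold change of 0.56 over all 41. Samples did not overlap for 24 genes that were higher and 2 that were lower, as compared to 36.8% and 33.0% of all genes. Both comparisons share the untreated samples. Of the genes tested, 15 were higher in both laser groups than in untreated eyes and 2, Col4a3 and Col19a1, were lower in both. Col1a1, Col8a1 and Col17a1 were higher, and Col2a1, Col6a1 and Col9a1 lower, in RVO eyes only, whereas Col9a2, Col11a2, Col23a1 and Col27a1 were higher in control eyes only. For none of these 10 genes did the difference between RVO and control eyes itself pass the threshold, with adjusted p-values of 0.0105 to 0.635. A further 14 genes passed in no comparison, and Col6a5, Col10a1 and Col28a1 had too few counts for the test.

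Between RVO and control eyes, 2 collagen genes passed the threshold, Col18a1 and Col1a2, and both were higher in RVO (2.70% of all 16874 genes tested were higher, 0.634% lower and 3.34% either). No collagen gene was lower at this threshold, although 26 of the 41 had an unadjusted p under 0.05 in edgeR and 10 were lower by DESeq2's Wald test. Of all 16874 genes, 7940 had an unadjusted p under 0.05 in edgeR, and 23.8% passed DESeq2's Wald test in either direction. At an adjusted p under 0.05, 9 collagen genes were higher in RVO eyes and 14 were higher in control eyes (17.5% and 17.1% of all genes). The 9 were 3 basement membrane, 4 fibrillar and 2 other collagens, and the 14 were 4 fibrillar and 10 other collagens. Values of the groups did not overlap for 10 genes that were higher and 16 that were lower in RVO, as compared to 27.3% and 25.4% of all genes. When RVO replicate 2 was left out, 4 collagen genes were higher (Col18a1, Col1a2, Col1a1 and Col4a6) and 17 lower in RVO. Of all genes tested, 36.4% then passed, as compared to 3.34% with all samples, so that calls rose over all genes. The 17 were Col4a2, Col4a3 and Col15a1 of basement membranes, the fibrillar Col11a2, Col24a1 and Col27a1, Col6a1, Col6a2 and Col6a6 of beaded filaments, the fibril-associated Col9a1, Col12a1, Col19a1, Col20a1 and Col22a1, and Col7a1, Col23a1 and Col25a1. Without any other of the 6 samples, the number of collagen genes that passed was 0 (edgeR, adjusted p under 0.01), with 21 to 26 at an unadjusted p under 0.05. An unadjusted p under 0.05 was then also found for 6100 to 6916 of all 17149 to 17270 genes tested. In these fits, 0 to 0.169% of all genes tested passed, so the loss was not particular to collagen genes.

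**Figure D2:**
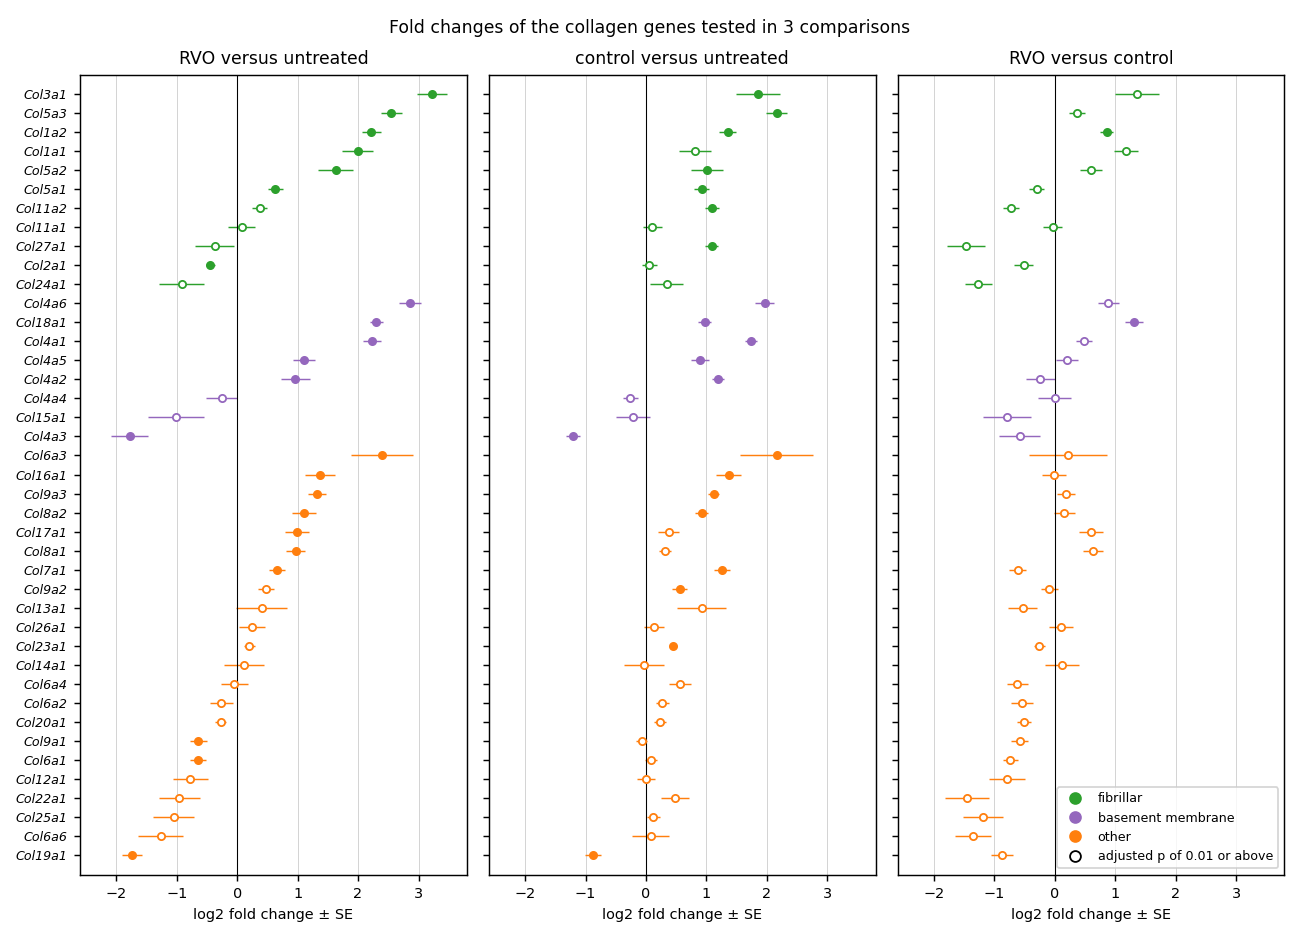
Log2 fold change with its standard error for the 41 tested collagen genes in the 3 comparisons, ordered within classes by the comparison of RVO and untreated eyes. Filled points had an adjusted p under 0.01. The left panel has 23 filled points, the middle panel 21 and the right panel 2 (Col18a1 and Col1a2).

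The collagens with the highest level differed between the groups. In untreated eyes the transmembrane collagen gene Col23a1 and the beaded filament gene Col6a1 came first, with 12.2 ± 0.202 and 11.7 ± 1.58 CPM per kb (SD, n = 3). The vitreous genes Col9a1 and Col2a1 followed with 6.04 ± 0.433 and 5.6 ± 0.211 CPM per kb, which did not differ beyond their spread. Col18a1 was in the 6th place and Col4a1 in the 11th, with 4.51 ± 0.302 and 3.31 ± 0.427 CPM per kb. In control eyes, Col23a1 remained the highest with 16.7 ± 0.423 CPM per kb, followed by Col6a1 and Col4a1 with 12.5 ± 1.35 and 11.1 ± 1.33 CPM per kb, which overlapped. In RVO eyes, Col18a1 was the highest with 22.3 ± 2.53 CPM per kb, followed by Col4a1 with 15.6 ± 2.60 and Col23a1 with 14.1 ± 1.65 CPM per kb, which overlapped. Summed over all 44 genes, collagen RNA was 86.6 ± 3.05 CPM per kb in untreated, 130.2 ± 9.11 in control and 136 ± 14.6 in RVO eyes. Basement membrane collagens made up 22.2 to 22.8% of this sum in untreated, 25.2 to 30.1% in control and 39.3 to 42.1% in RVO samples. The share of fibrillar collagens was 13.2 to 13.8%, 13.6 to 15.6% and 11.6 to 13.0%, and that of the other collagens 63.9 to 64.6%, 55.7 to 59.2% and 45.0 to 48.5%, respectively. RVO and control samples thus had similar sums but did not overlap in the share of any of the 3 classes. These shares depend on each other, since a larger share of a class leaves less for the others. In CPM per kb, the fibrillar sums overlapped, with 16.8 to 20.1 in control and 16.1 to 17.7 in RVO samples. Sums of other collagens overlapped as well, with 69.4 to 78.2 and 56.1 to 73.8. Those of basement membrane collagens did not, with 31.9 to 42.2 and 51.2 to 60.8. The larger basement membrane share in RVO did not reflect the class as a whole. Of its 8 genes, 4 had a positive and 4 a negative log2 fold change between RVO and control eyes, with a median of 0.10. In CPM per kb, Col18a1 (8.97 in control, 22.3 in RVO eyes) and Col4a1 (11.1 and 15.6) rose most. The class sums in CPM per kb were 2.82-fold (basement membrane), 1.43-fold (fibrillar) and 1.16-fold (other) above those of untreated eyes in RVO and 1.91-fold, 1.62-fold and 1.34-fold above them in control eyes.

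Among the basement membrane collagens, Col18a1 (chromosome 10, 77052178 to 77166548 on the minus strand of GRCm38) encodes the precursor of endostatin. It had 30.1, 30.7 and 34.1 CPM in untreated samples, 75.5, 59.9 and 53.4 CPM in control samples and 166, 136 and 168 CPM in RVO samples (replicates 1 to 3). All RVO samples exceeded all control samples, and all control samples exceeded all untreated samples. Col18a1 rose 4.92-fold from untreated to RVO eyes (log2 fold change 2.30 ± 0.11, edgeR adjusted p = 3.37e-06) and 1.96-fold from untreated to control eyes (log2 fold change 0.97 ± 0.11, edgeR adjusted p = 8.38e-06). RVO eyes had 2.49-fold more than control eyes (log2 fold change 1.32 ± 0.14, edgeR adjusted p = 0.00668), and 2.62-fold without RVO replicate 2 (adjusted p = 1.98e-05). When any of the other 5 samples was left out, the log2 fold change was between 1.21 and 1.47 and the edgeR adjusted p between 0.0139 and 0.0436, above the threshold.

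RefSeq lists a pair of transcription starts for Col18a1 in GRCm38.p6, which serve a short and a longer form of the protein, and counts per gene do not separate them. The promoter windows are shown because Col18a1 and Col1a2 were the genes that passed between RVO and control eyes. Each window runs from 250 bases before to 50 bases after the start, 5′ to 3′ on the strand of the gene. Capitals mark matches on either strand to the letters GGGCGG (the SP1 box), to CCAAT (the CCAAT box), to TATAAA (the TATA box), to TGACTCA (the AP-1 site) and to ACGTG (the core of hypoxia response elements). No matches of different motifs overlap in the windows printed here.
Col18a1, chr10:77113656-77113955, minus strand: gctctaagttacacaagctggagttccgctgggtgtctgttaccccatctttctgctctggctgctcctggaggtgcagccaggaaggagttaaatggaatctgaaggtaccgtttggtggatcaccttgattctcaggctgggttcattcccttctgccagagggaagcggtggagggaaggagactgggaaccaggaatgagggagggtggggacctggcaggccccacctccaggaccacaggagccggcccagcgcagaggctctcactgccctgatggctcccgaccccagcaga
Col18a1, chr10:77166481-77166780, minus strand: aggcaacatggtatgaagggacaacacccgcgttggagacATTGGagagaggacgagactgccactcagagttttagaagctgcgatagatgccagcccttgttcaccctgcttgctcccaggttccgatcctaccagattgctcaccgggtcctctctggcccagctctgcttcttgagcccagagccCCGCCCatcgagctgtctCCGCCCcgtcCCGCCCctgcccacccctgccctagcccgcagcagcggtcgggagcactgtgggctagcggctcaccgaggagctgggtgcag
Col1a2, chr6:4505368-4505667, plus strand: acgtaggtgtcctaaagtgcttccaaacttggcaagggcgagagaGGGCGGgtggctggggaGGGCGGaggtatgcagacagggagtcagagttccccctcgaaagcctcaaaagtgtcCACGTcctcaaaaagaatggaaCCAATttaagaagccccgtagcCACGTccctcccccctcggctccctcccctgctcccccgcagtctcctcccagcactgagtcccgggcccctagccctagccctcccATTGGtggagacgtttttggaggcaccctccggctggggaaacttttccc
The upstream window of Col18a1 held 3 matches to GGGCGG and 1 to CCAAT, and the downstream window held no match to any of the letters searched. The window of Col1a2 held 2 matches to GGGCGG, 2 matches to CCAAT and 2 matches to ACGTG.

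Of the collagen genes, 35 were matched to a promoter in the RefSeq table used here, with 38 windows in all. GGGCGG was found in 23 of the 38 windows (60.5%), as compared to 35.7% of 32851 promoters of all genes. The other letters were found in similar or smaller shares of collagen windows and of all promoters, with 13.2% and 19.6% for ACGTG, 34.2% and 37.4% for CCAAT, 13.2% and 13.6% for TATAAA, and 2.63% and 5.20% for AP-1. The windows of Col10a1, Col11a2, Col13a1, Col17a1 and Col3a1 held TATAAA, and that of Col6a1 held the AP-1 letters.

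Col4a1 and Col4a2 encode the chains that pair in the main collagen IV network of vessels. They lie head to head (chromosome 8, 11198423 to 11312826 on the minus strand and 11312805 to 11449287 on the plus strand of GRCm38), and their starts in RefSeq are 21 bases apart. Their promoter windows overlap by 78 bases, which are shown because these genes share them, with the match to GGGCGG in capitals.
Col4a1 and Col4a2, chr8:11312777-11312854, plus strand: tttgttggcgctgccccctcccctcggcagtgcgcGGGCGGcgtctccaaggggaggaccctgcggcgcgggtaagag
Col4a1 had 27.7, 25 and 21.4 CPM in untreated samples, 88.5, 89.1 and 71.7 CPM in control samples and 113, 137 and 99.0 CPM in RVO samples. It rose 4.68-fold in RVO (log2 fold change 2.23 ± 0.14, edgeR adjusted p = 1.32e-05) and 3.33-fold in control eyes (log2 fold change 1.74 ± 0.10, edgeR adjusted p = 9.61e-08). The RVO samples lay above all control samples, with a log2 difference of 0.48 ± 0.14 (standard error) that did not pass the threshold (edgeR adjusted p = 0.0309).

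Its neighbour Col4a2 followed another order. Col4a2 had 23.8, 23.4 and 26.0 CPM in untreated samples, 62.2, 59.0 and 47.9 CPM in control samples and 34.5, 68.8 and 40.6 CPM in RVO samples. RVO replicates 1 and 3 lay below all control samples and RVO replicate 2 above them, so that these groups overlapped, whereas all laser-treated samples exceeded the untreated ones. Col4a2 rose 2.27-fold in control (log2 fold change 1.19 ± 0.10, edgeR adjusted p = 7.21e-07) and 1.95-fold in RVO eyes (log2 fold change 0.96 ± 0.23, edgeR adjusted p = 0.00686). Leaving out RVO replicate 2 reduced the rise in RVO to 1.54-fold, and Col4a2 was then 1.52-fold lower in RVO than in control eyes (edgeR adjusted p = 0.00241). Without RVO replicate 3 or any of the untreated samples, the rise in RVO no longer passed, with an edgeR adjusted p of up to 0.0322.

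Ratios of neighbouring collagen IV genes within samples were computed after their values had been seen. The ratio of Col4a1 to Col4a2 in CPM per kb was 1.03, 0.948 and 0.729 in untreated samples, 1.26, 1.34 and 1.33 in control samples and 2.90, 1.77 and 2.16 in RVO samples. Groups did not overlap, and the geometric mean of the ratio exceeded that of untreated eyes 2.50-fold in RVO and 1.46-fold in control eyes, and that of control eyes 1.70-fold in RVO. Each of these differences had the smallest p that 3 against 3 samples allow (two-sided exact permutation test, p = 0.1, and 0.15 after Benjamini-Hochberg adjustment over 15 comparisons of 5 ratios), so this design could not reach 0.05. A ratio within samples does not depend on how libraries were scaled. The fifth ratio, of Col6a1 to Col6a2, had geometric means of 11.6, 10.3 and 9.08 in untreated, control and RVO eyes, and only RVO and untreated samples did not overlap (p = 0.1, exact permutation test).

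Col4a3 (chromosome 1, 82586921 to 82722059) and Col4a4 are head-to-head neighbours on chromosome 1 that encode chains of another collagen IV network, known from the kidney glomerulus. Col4a3 had 39.5, 37.1 and 36.3 CPM in untreated samples, 19.9, 13.6 and 16.0 CPM in control samples and 8.06, 17.8 and 7.36 CPM in RVO samples. All laser-treated samples lay below all untreated samples, while RVO replicate 2 lay among the control samples. Col4a3 was the basement membrane gene that fell, by 3.44-fold in RVO (log2 fold change -1.78 ± 0.30, edgeR adjusted p = 0.00111) and by 2.31-fold in control eyes (log2 fold change -1.21 ± 0.11, edgeR adjusted p = 1.83e-06). With RVO replicate 2 left out it was 4.83-fold below untreated and 2.16-fold below control eyes (edgeR adjusted p = 0.000432), as compared to 1.5-fold with all samples (adjusted p = 0.208). Of its exon length, 5.65% overlaps a gene on the opposite strand, C430014B12Rik, and since it is not stated whether the counting used the strand, reads of the overlap may stem from either gene. Col4a4 had 13.1 ± 0.538 CPM in untreated, 11.0 ± 1.84 CPM in control and 11.1 ± 4.51 CPM in RVO eyes (SD, n = 3) and passed in no comparison, but without RVO replicate 2 it was 1.53-fold below untreated eyes in RVO (edgeR adjusted p = 0.00116). The ratio of Col4a3 to Col4a4 in CPM per kb was 3.08, 3.11 and 3.01 in untreated samples, 1.62, 1.41 and 1.75 in control samples and 1.11, 1.17 and 0.842 in RVO samples. The 3 groups did not overlap, which gives the smallest possible p of 0.1 in each exact permutation test.

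Col4a6 (chromosome X, 141165403 to 141474076) and Col4a5 lie head to head on chromosome X, with starts that are 1343 bases apart, and encode chains that combine in a network of epithelial and smooth muscle basement membranes. Col4a6 had 3.67, 2.91 and 3.44 CPM in untreated samples, 14.9, 13.9 and 10.8 CPM in control samples and 24.3, 29.2 and 19.8 CPM in RVO samples. The groups did not overlap and followed the same order as those of Col18a1. Col4a6 rose 7.28-fold in RVO (log2 fold change 2.86 ± 0.18, edgeR adjusted p = 1.26e-05) and 3.90-fold in control eyes (log2 fold change 1.96 ± 0.16, edgeR adjusted p = 6.34e-07). It was 1.85-fold above control eyes in RVO, which did not pass the threshold (edgeR adjusted p = 0.013), and 1.66-fold without RVO replicate 2, which did (adjusted p = 0.00252). Col4a5 rose 2.15-fold in RVO and 1.86-fold in control eyes (edgeR adjusted p = 0.000799 and 0.000178). In CPM per kb, the ratio of Col4a6 to Col4a5 was 0.201, 0.207 and 0.252 in untreated samples, 0.418, 0.539 and 0.437 in control samples and 0.838, 0.709 and 0.679 in RVO samples, again without overlap between groups (exact permutation test, p = 0.1 each).

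**Figure D3:**
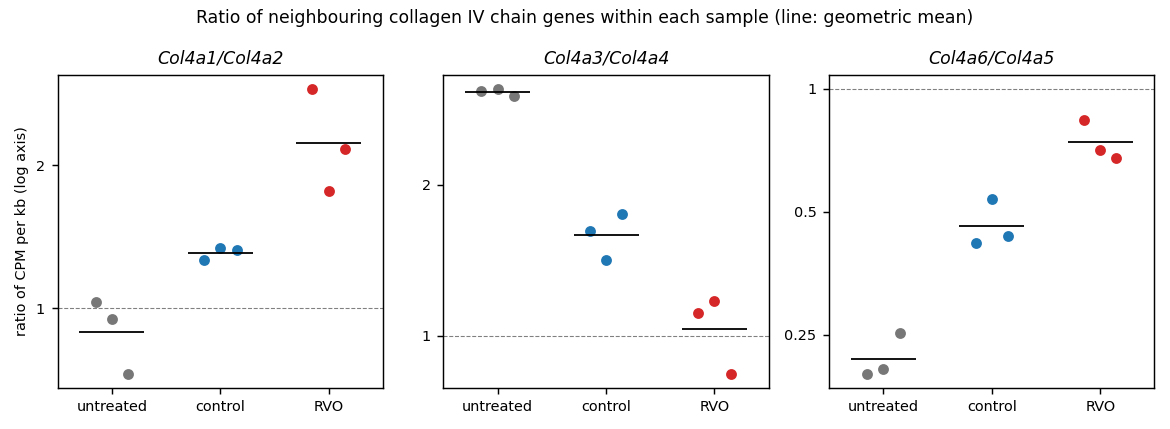
Ratio of the levels in CPM per kb of neighbouring collagen IV genes in each of the 9 samples on a log axis, with replicates 1 to 3 from left to right and the geometric mean as a line. The dashed line marks equal levels. The 3 groups are separated in each panel, upwards for Col4a1/Col4a2 and Col4a6/Col4a5 and downwards for Col4a3/Col4a4.

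Col15a1 (chromosome 4, 47208161 to 47313167), which encodes a collagen of vessel and muscle basement membranes, did not pass in any comparison of all samples. It had 5.55, 3.14 and 2.24 CPM in untreated samples, 3.83, 2.39 and 3.08 CPM in control samples and 1.16, 3.09 and 1.20 CPM in RVO samples, and all groups overlapped. Its log2 difference between RVO and untreated eyes was -1.01 ± 0.47 (standard error; edgeR adjusted p = 0.086). The value was -1.58 without RVO replicate 2 and passed the threshold (adjusted p = 0.000809).

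Markers of the cells of vessels had their highest sums in control eyes or in RVO replicate 2. The 8 endothelial markers summed to 160.1 to 165.1 CPM in untreated, 316 to 351 CPM in control and 144 to 264 CPM in RVO samples, with the highest RVO value in replicate 2. Most of this sum was Kdr, with means of 126, 256 and 150 CPM in untreated, control and RVO eyes. Pecam1, Cdh5 and Erg had means of 15.6, 9.77 and 2.27 CPM in control and 16.4, 10.3 and 2.47 CPM in RVO eyes. Of the 8 endothelial markers, 3 were higher in RVO and 6 were higher in control than in untreated eyes. None of the 8 passed in RVO against control eyes, where 3 log2 fold changes were positive and 5 negative. At an adjusted p under 0.05, 5 were lower in RVO than in control eyes. Of all genes, 27.4% and 27.2% were higher against untreated eyes, 3.34% passed in RVO against control eyes, and 17.1% were lower at 0.05. Summed levels of 8 pericyte and smooth muscle markers were 97.5 to 111.1 CPM in untreated, 113 to 132 CPM in control and 70.9 to 148 CPM in RVO samples, with 1 gene higher and 2 lower in RVO and 4 higher in control eyes against untreated eyes. Rgs5 had means of 65.9, 65.2 and 33.3 CPM in untreated, control and RVO eyes, whereas Acta2 had 5.44, 14.8 and 43.9 CPM. Against control eyes, 1 of the 8 was higher and 4 were lower in RVO at an adjusted p under 0.05. The shares of all genes were 17.5% and 17.1%. No gene of these lists was without counts in a group. Their part in the levels of basement membrane collagens was not tested.

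**Figure D4:**
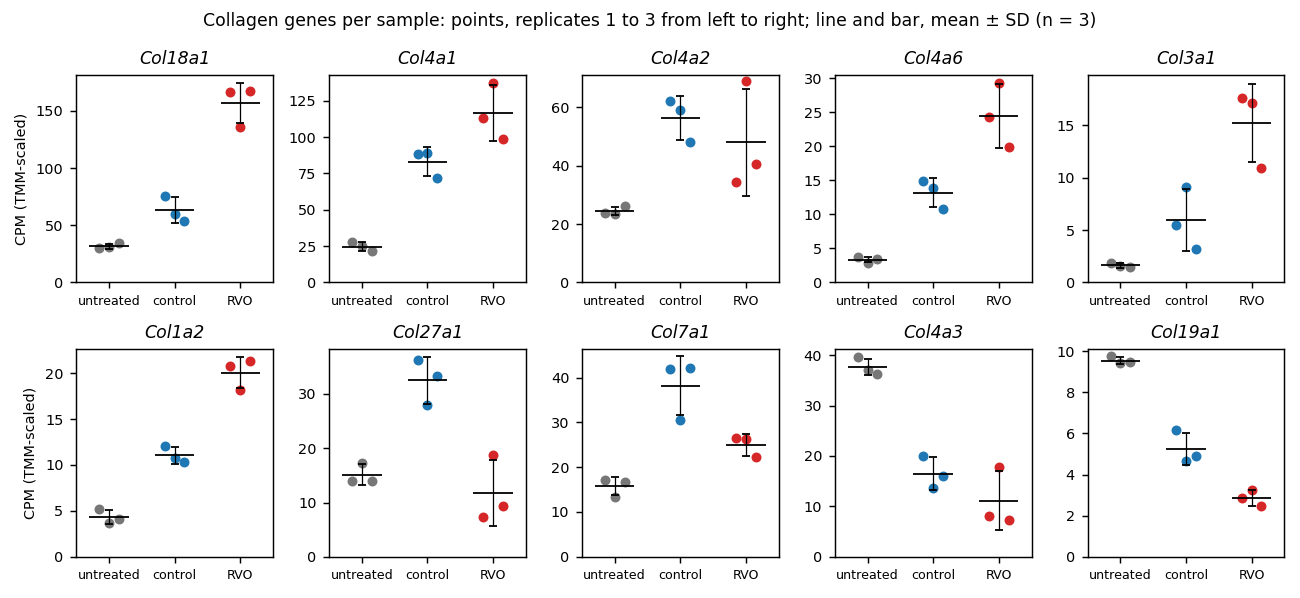
CPM of 10 collagen genes in each sample, with replicates 1 to 3 from left to right and mean ± SD (n = 3) as a line with bars. Col18a1, Col4a6 and Col1a2 increase stepwise from untreated over control to RVO, Col4a3 and Col19a1 decrease, and Col27a1 and Col7a1 are highest in control eyes.

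Of the fibrillar collagens, the chains of types I, III and V rose in RVO eyes. Col3a1 (chromosome 1, 45311538 to 45349706), which encodes the chain of type III collagen of vessel walls and healing wounds, had the largest fold change of the tested collagen genes in RVO against untreated eyes. It had 1.88, 1.53 and 1.47 CPM in untreated samples, 5.52, 9.14 and 3.21 CPM in control samples and 17.6, 17.1 and 10.9 CPM in RVO samples. Groups did not overlap, with a wide range among the control samples. Col3a1 rose 9.31-fold in RVO (log2 fold change 3.22 ± 0.25, edgeR adjusted p = 2.81e-05) and 3.60-fold in control eyes (log2 fold change 1.85 ± 0.36, edgeR adjusted p = 0.000639). The log2 difference of 1.36 ± 0.36 between RVO and control eyes did not pass the threshold (edgeR adjusted p = 0.0264).

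Type I collagen, the main fibre of connective tissue, is built from the chains of Col1a1 and Col1a2. Col1a2 (chromosome 6, 4504814 to 4541544) had 5.19, 3.67 and 4.07 CPM in untreated samples, 12.1, 10.8 and 10.3 CPM in control samples and 20.8, 18.2 and 21.3 CPM in RVO samples, and the groups were separated in this order. It rose 4.65-fold in RVO (log2 fold change 2.22 ± 0.16, edgeR adjusted p = 2.11e-05) and 2.55-fold in control eyes (log2 fold change 1.35 ± 0.14, edgeR adjusted p = 4.6e-06). RVO eyes had 1.81-fold more than control eyes (log2 fold change 0.86 ± 0.11, edgeR adjusted p = 0.00803). This difference was 1.88-fold without RVO replicate 2 (adjusted p = 7.63e-05), and without any of the other 5 samples its log2 value was 0.80 to 0.93 with an edgeR adjusted p of 0.0186 to 0.0562. Col1a1 (chromosome 11, 94936224 to 94953042) had 2.42, 1.61 and 1.19 CPM in untreated samples, 3.65, 3.15 and 2.32 CPM in control samples and 6.06, 7.39 and 7.23 CPM in RVO samples. RVO samples exceeded all others, while control replicate 3 lay among the untreated samples. Col1a1 rose 3.99-fold in RVO (log2 fold change 1.99 ± 0.25, edgeR adjusted p = 0.000255), while its value in control eyes was 1.75-fold (edgeR adjusted p = 0.0187). Against control eyes its log2 difference in RVO was 1.18 ± 0.20 (adjusted p = 0.0106), and it passed without RVO replicate 2 (log2 value 1.11, edgeR adjusted p = 0.00164). The ratio of Col1a1 to Col1a2 in CPM per kb overlapped between all groups, with geometric means of 0.740, 0.513 and 0.649 in untreated, control and RVO eyes.

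Collagen V chains join type I fibrils and limit their width. The gene of the least common chain, Col5a3 (chromosome 9, 20770050 to 20815067), had 2.33, 2.75 and 3.51 CPM in untreated samples, 13.0, 15.2 and 11.4 CPM in control samples and 18.4, 15.7 and 16.9 CPM in RVO samples. RVO and control samples were separated by a small margin, and both lay well above the untreated samples. Col5a3 rose 5.84-fold in RVO (log2 fold change 2.55 ± 0.17, edgeR adjusted p = 1.7e-05) and 4.48-fold in control eyes (log2 fold change 2.16 ± 0.17, edgeR adjusted p = 4.83e-07). Col5a1 and Col5a2 also rose, by 1.55-fold and 3.09-fold in RVO and by 1.90-fold and 2.01-fold in control eyes. In RVO, Col5a2 no longer passed without untreated replicate 1 (adjusted p = 0.0103) and Col5a1 without untreated replicate 2 or 3 (up to 0.0167). In control eyes, Col5a2 passed without control or untreated replicate 3, but neither without any of the other 4 samples nor in 1 fit of all 9 samples (adjusted p of up to 0.0369).

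The fibrillar genes of vitreous and cartilage took another course. Col2a1 (chromosome 15, 97975602 to 98004695), which encodes the main fibril chain of the vitreous, had 53.3, 49.6 and 52.3 CPM in untreated samples, 57.9, 40.3 and 65.1 CPM in control samples and 38.0, 39.0 and 37.9 CPM in RVO samples. RVO samples lay below all others, and control samples spanned the untreated ones. In RVO, Col2a1 was 1.36-fold below untreated eyes (log2 fold change -0.44 ± 0.07, edgeR adjusted p = 0.000856), a call that was lost when libraries were scaled by total counts only or when all 9 samples were fitted together (adjusted p of up to 0.0232). Col27a1 (chromosome 4, 63214004 to 63334991), a fibrillar gene of cartilage that is described here because of its values, had 14.0, 17.4 and 14.0 CPM in untreated samples, 36.4, 27.9 and 33.2 CPM in control samples and 7.35, 18.7 and 9.36 CPM in RVO samples. All control samples exceeded all others, and RVO replicate 2 was the only RVO sample above the untreated ones. Col27a1 rose 2.12-fold in control eyes (log2 fold change 1.08 ± 0.11, edgeR adjusted p = 4.12e-06) and was 2.77-fold below control eyes in RVO, which did not pass the threshold (adjusted p = 0.0153). When RVO replicate 2 was left out, it was 3.97-fold below control and 1.81-fold below untreated eyes (edgeR adjusted p = 8.71e-06 and 0.000185). Col11a2, a chain of type XI collagen, was also highest in control eyes, where it rose 2.13-fold, and had a log2 difference of -0.73 ± 0.13 between RVO and control eyes (adjusted p = 0.0121). Its partner Col11a1 and the fibrillar gene Col24a1 passed in no comparison.

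Markers of fibroblasts and of tissues next to the retina were summed beside the fibrillar collagens. The 8 fibroblast markers summed to 35.7 to 42.7 CPM in untreated, 28.6 to 40.4 CPM in control and 46.1 to 66.6 CPM in RVO samples. Of the 6 tested, 3 were higher in RVO than in untreated eyes, 1 of 5 tested was lower in control than in untreated eyes, and none passed between RVO and control eyes, although 3 were higher in RVO at an adjusted p under 0.05. The 6 markers of ciliary body and iris summed to 63.9 to 88.1, 40.4 to 75.3 and 81.4 to 143 CPM in untreated, control and RVO samples, with 2 genes higher in RVO and 2 lower in control eyes against untreated eyes. The 6 markers of corneal and conjunctival epithelium summed to 7.22 to 9.10, 6.55 to 13.4 and 16.3 to 43.4 CPM, with 1 gene higher and 1 lower in RVO and 1 lower in control eyes against untreated eyes. The 8 markers of pigment epithelium summed to 326 to 360.1, 317 to 365 and 239 to 475 CPM, with 1 gene lower in RVO and 2 lower in control eyes. No gene of these 3 lists passed between RVO and control eyes, and 1 ciliary body and iris, 1 pigment epithelium and 0 corneal markers were higher in RVO at an adjusted p under 0.05. Of all genes tested against untreated eyes, 27.4% were higher and 24.6% lower in RVO, and 27.2% higher and 25.2% lower in control eyes. Between RVO and control eyes, 3.34% of all genes passed and 17.5% were higher at 0.05. Several of the marker counts were thus near or below the shares of all genes. RVO replicate 2 had the highest sum of all RVO samples in each of these 4 lists. Their part in the levels of fibrillar collagens was not tested.

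Of the other collagens, those of beaded filaments were tested for 5 of 6 genes, with 1 higher and 1 lower in RVO and 1 higher in control eyes against untreated eyes. These shares of 20% each were below those of all genes, with 27.4% higher and 24.6% lower in RVO and 27.2% higher in control eyes. Col6a1 (chromosome 10, 76708792 to 76726168) had 59.1, 46.4 and 48.0 CPM in untreated samples, 60.3, 48.6 and 55.6 CPM in control samples and 30.2, 38.7 and 29.9 CPM in RVO samples. RVO samples lay below all others. Col6a1 fell by 1.56-fold from untreated to RVO eyes (log2 fold change -0.64 ± 0.13, edgeR adjusted p = 0.00303), and between RVO and control eyes its log2 difference was -0.74 ± 0.12 (adjusted p = 0.0105). The fall against untreated eyes no longer passed without RVO replicate 3, without untreated replicate 1 or with scaling by total counts only (edgeR adjusted p of up to 0.0164), and the difference from control eyes passed without RVO replicate 2 (1.85-fold lower, adjusted p = 6.66e-05). Col6a2, whose chain joins that of Col6a1 in each filament, had 8.31 ± 0.378, 10.1 ± 0.397 and 6.98 ± 1.68 CPM in untreated, control and RVO eyes and passed in no comparison with all samples, nor did Col6a4 and Col6a6.

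Col6a3 (chromosome 1, 90765923 to 90843971), which encodes the longest chain of these filaments, was at low levels of 0.537, 0.765 and 0.631 CPM in untreated samples, 5.98, 1.47 and 1.44 CPM in control samples and 2.52, 5.97 and 1.95 CPM in RVO samples. Its highest values were those of control replicate 1 and RVO replicate 2, the samples with the highest sums of lens markers, and the part of lens RNA in them was not tested. Col6a3 rose 5.26-fold in RVO (log2 fold change 2.39 ± 0.51, edgeR adjusted p = 0.0036) and 4.47-fold in control eyes (log2 fold change 2.16 ± 0.60, edgeR adjusted p = 0.00699). Without RVO replicate 2 the value in RVO was 3.47-fold (edgeR adjusted p = 0.000134), and without control replicate 1 that in control eyes was 2.21-fold (adjusted p = 0.00912). In 1 fit of all 9 samples neither passed (adjusted p = 0.0141 and 0.0321), nor without any of the untreated samples, with adjusted p-values of 0.0142 to 0.0195 in RVO and 0.0284 to 0.0326 in control eyes.

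Of 9 fibril-associated collagens, 2 were higher and 2 lower in RVO and 3 higher and 1 lower in control eyes against untreated eyes. The shares in RVO (22.2% in each direction) were close to those of all genes (27.4% and 24.6%). Type IX collagen, which coats the fibrils of the vitreous, has a chain from each of Col9a1, Col9a2 and Col9a3. Col9a3 (chromosome 2, 180597790 to 180622189) had 14.0, 13.4 and 14.4 CPM in untreated samples, 32.8, 29.1 and 30.2 CPM in control samples and 27.3, 40.1 and 37.8 CPM in RVO samples, with all laser-treated samples above the untreated ones. It rose 2.49-fold in RVO (log2 fold change 1.32 ± 0.15, edgeR adjusted p = 0.000158) and 2.17-fold in control eyes (log2 fold change 1.12 ± 0.09, edgeR adjusted p = 3.82e-07), and 6.07% of its exon length overlaps Tcfl5 on the opposite strand. Col9a1 (chromosome 1, 24177610 to 24252684) had 32.8, 28.4 and 30.5 CPM in untreated samples, 32.2, 25.7 and 30.5 CPM in control samples and 17.6, 24.1 and 17.6 CPM in RVO samples. Here the RVO samples lay below all others, and control and untreated samples overlapped. In RVO, Col9a1 was 1.56-fold below untreated eyes (log2 fold change -0.64 ± 0.14, edgeR adjusted p = 0.00374), and it passed neither with scaling by total counts only nor when any RVO or untreated sample except RVO replicate 2 was left out (edgeR adjusted p of up to 0.0193). Col9a2 rose 1.47-fold in control eyes (edgeR adjusted p = 0.00223, and up to 0.0147 without untreated replicate 1 or 3) and had a value of 1.39-fold in RVO (adjusted p = 0.0128).

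Col19a1 (chromosome 1, 24261890 to 24587472), a fibril-associated collagen that is also made by some neurons, had 9.75, 9.41 and 9.47 CPM in untreated samples, 6.16, 4.67 and 4.90 CPM in control samples and 2.87, 3.26 and 2.48 CPM in RVO samples. The groups did not overlap, in the reverse order of those of Col18a1. Col19a1 fell by 3.34-fold in RVO (log2 fold change -1.74 ± 0.16, edgeR adjusted p = 5.76e-05) and by 1.84-fold in control eyes (log2 fold change -0.88 ± 0.13, edgeR adjusted p = 8.25e-05). Between RVO and control eyes its log2 difference was -0.87 ± 0.18 (edgeR adjusted p = 0.0146), and -0.98 without RVO replicate 2 (adjusted p = 0.00224). Col16a1 (chromosome 4, 130047840 to 130099283) had 1.25, 1.53 and 1.68 CPM in untreated samples, 3.56, 4.21 and 4.06 CPM in control samples and 3.35, 4.98 and 3.46 CPM in RVO samples. The laser-treated groups overlapped and lay above the untreated samples. It rose 2.59-fold in RVO (log2 fold change 1.37 ± 0.25, edgeR adjusted p = 0.00151) and 2.58-fold in control eyes (log2 fold change 1.37 ± 0.20, edgeR adjusted p = 6.83e-05). The other 4 genes of this group, Col12a1, Col14a1, Col20a1 and Col22a1, passed in no comparison with all samples, and Col12a1 and Col22a1 were 2.20-fold and 2.33-fold below untreated eyes without RVO replicate 2 (edgeR adjusted p = 0.000154 and 0.0041).

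All 3 tested genes of network-forming and anchoring collagens were higher in RVO than in untreated eyes, as were 27.4% of all genes. Col7a1 (chromosome 9, 108953586 to 108984875), which encodes the anchoring fibrils below epithelia, had 17.2, 13.4 and 16.7 CPM in untreated samples, 42.0, 30.6 and 42.1 CPM in control samples and 26.6, 26.3 and 22.2 CPM in RVO samples. RVO samples lay between the other groups without overlap. Col7a1 rose 2.40-fold in control (log2 fold change 1.26 ± 0.13, edgeR adjusted p = 3.42e-06) and 1.58-fold in RVO eyes (log2 fold change 0.66 ± 0.13, edgeR adjusted p = 0.00219), and the latter did not pass without untreated replicate 2 (adjusted p = 0.0108). The difference between RVO and control eyes was -0.61 ± 0.14 on the log2 scale (edgeR adjusted p = 0.017), and -0.66 without RVO replicate 2 (adjusted p = 0.0042). Col8a1 and Col8a2 encode the chains of type VIII collagen of vessel walls and the cornea. They rose 1.95-fold and 2.14-fold in RVO eyes, and Col8a2 also 1.90-fold in control eyes. The adjusted p of Col8a2 in RVO was 0.00148 and reached 0.0104 without untreated replicate 1. Col10a1, a gene of hypertrophic cartilage, had 0 to 0.387 CPM in all 9 samples.

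Among the transmembrane collagens, Col23a1 (chromosome 11, 51289920 to 51583918) had 68.5, 70.2 and 70.7 CPM in untreated samples, 98.3, 96.4 and 93.5 CPM in control samples and 73.5, 91.5 and 77.4 CPM in RVO samples. RVO samples lay between the other groups without overlap. Col23a1 rose 1.36-fold in control eyes (log2 fold change 0.44 ± 0.05, edgeR adjusted p = 1.05e-05), whereas its log2 difference in RVO was 0.20 ± 0.09 (edgeR adjusted p = 0.0853). Col17a1, a collagen of the hemidesmosomes that fix epithelia to their basement membrane, rose 1.99-fold in RVO eyes (edgeR adjusted p = 0.00289, and up to 0.0178 without any of the untreated samples). Col25a1, a collagen of neurons, had 13.1 ± 1.71, 14.4 ± 0.864 and 6.40 ± 3.44 CPM in untreated, control and RVO eyes (SD, n = 3) and passed in no comparison. Its RVO replicates 1 and 3 alone were 2.95-fold below untreated and 3.32-fold below control eyes (edgeR adjusted p = 2.3e-06 and 1.94e-05). Col13a1 and Col26a1 passed in no comparison, and Col6a5 and Col28a1 had at most 0.502 and 0.319 CPM in any sample.

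Collagen chains are modified and folded in the endoplasmic reticulum, trimmed and crosslinked outside the cell, and bound by receptors, and the genes of these steps were examined beside the collagens. Of 20 genes that modify or fold collagen chains, 11 were higher and 1 lower in RVO against untreated eyes, and 10 were higher and 4 lower in control eyes, with medians of the log2 fold change of 0.68 and 0.32. Shares of all genes tested were 27.4% higher and 24.6% lower in RVO and 27.2% and 25.2% in control eyes, so that the share of lower genes in control eyes was near that of all genes. In RVO against control eyes, where 2.70% of all genes were higher, 7 of the 20 were higher and 11 at an adjusted p under 0.05, with a median of 0.37 (0.02 over all genes) and none lower at either threshold. Serpinh1, the collagen-specific chaperone HSP47, had 10.7, 11.9 and 11.7 CPM in untreated samples, 38.7, 43.8 and 30.7 CPM in control samples and 107, 75.2 and 108 CPM in RVO samples. The groups did not overlap. Serpinh1 rose 8.40-fold in RVO (log2 fold change 3.07 ± 0.16, edgeR adjusted p = 5.39e-06) and exceeded control eyes 2.57-fold (adjusted p = 0.00823). Fkbp10, a prolyl isomerase of the endoplasmic reticulum, had 2.42, 4.13 and 3.86 CPM in untreated samples, 15.8, 15.3 and 14.3 CPM in control samples and 32.1, 27.5 and 34.7 CPM in RVO samples. It rose 8.90-fold in RVO (log2 fold change 3.15 ± 0.19, edgeR adjusted p = 1.02e-05), and exceeded control eyes 2.08-fold (adjusted p = 0.00601). P3h4, which acts with a lysyl hydroxylase, had 5.01, 6.50 and 7.85 CPM in untreated samples, 14.0, 13.7 and 12.0 CPM in control samples and 21.9, 18.5 and 18.9 CPM in RVO samples. P3h4 rose 3.02-fold in RVO and 2.0-fold in control eyes (edgeR adjusted p = 0.000116 and 5.96e-05). P4ha1, a catalytic subunit of prolyl 4-hydroxylase, had 78.0, 71.4 and 69.1 CPM in untreated samples, 65.9, 58.0 and 64.3 CPM in control samples and 108, 108 and 84.5 CPM in RVO samples. It was thus lowest in control eyes, with a log2 fold change of -0.23 ± 0.06 against untreated eyes, while RVO differed from control eyes by 0.67 ± 0.11 (edgeR adjusted p = 0.00695 and 0.00996).

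Of 13 genes that cleave propeptides or crosslink fibrils, 9 of 12 tested were higher in RVO and 5 of 10 in control eyes against untreated eyes (median log2 fold changes of 1.58 and 0.62), beside 27.4% and 27.2% of all genes. In RVO against control eyes, 7 of 12 were higher, with a median of 0.95, beside 2.70% of all genes. None was lower in edgeR at this threshold, and 1 was lower in each comparison at an adjusted p under 0.05. These were Tll1, a protease related to Bmp1, in RVO and Adamts3, which cleaves the N-propeptide, in control eyes. Pcolce, which enhances cleavage of the C-propeptide, had 10.4, 10.9 and 13.0 CPM in untreated samples, 50.5, 60.3 and 46.1 CPM in control samples and 109.9, 104 and 107 CPM in RVO samples. Its groups were far apart as compared to their spread, with a rise of 9.26-fold in RVO (log2 fold change 3.21 ± 0.10, edgeR adjusted p = 1.28e-06) and 4.49-fold in control eyes, and a 2.04-fold difference between RVO and control eyes (adjusted p = 0.00601). Loxl4 and Lox encode lysyl oxidases, which start the crosslinking of fibrils. Loxl4 had 1.61, 2.52 and 3.37 CPM in untreated samples, 7.48, 9.65 and 7.31 CPM in control samples and 24.1, 22.3 and 22.2 CPM in RVO samples, which is a rise of 8.92-fold (log2 fold change 3.16 ± 0.21, edgeR adjusted p = 1.58e-05). Lox was at low levels of 0.358, 0.306 and 0.280 CPM in untreated samples, 0.456, 1.02 and 0.634 CPM in control samples and 1.71, 2.10 and 2.13 CPM in RVO samples. It rose 6.17-fold in RVO (log2 fold change 2.63 ± 0.29, edgeR adjusted p = 0.000137) and had too few counts for the test between control and untreated eyes. Adamts14, which cleaves the N-propeptide, had 0, 0 and 0.0701 CPM in untreated samples, 0.137, 0.254 and 0.169 CPM in control samples and 1.48, 0.859 and 0.976 CPM in RVO samples. As no untreated sample reached 3 counts, no fold change against them is given. The control samples had little more than this floor, and RVO eyes had 5.95-fold more than control eyes (log2 fold change 2.57 ± 0.38, edgeR adjusted p = 0.00928).

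Of 8 tested genes of collagen receptors and uptake, 4 were higher and 1 lower in RVO and 4 were higher in control eyes against untreated eyes, and 3 were higher in RVO against control eyes (median log2 fold changes of 1.11, 0.61 and -0.23). Of all genes, 27.4% were higher and 24.6% lower, 27.2% were higher and 2.70% were higher in these comparisons. Mrc2, which takes up collagen fragments into cells, had 1.43, 1.68 and 1.12 CPM in untreated samples, 4.06, 3.81 and 3.51 CPM in control samples and 7.09, 8.50 and 7.67 CPM in RVO samples. It rose 5.45-fold in RVO (log2 fold change 2.45 ± 0.20, edgeR adjusted p = 3.93e-05) and exceeded control eyes 2.04-fold (adjusted p = 0.00887). The receptor kinase genes differed from each other. Ddr2 had 5.81, 5.12 and 4.28 CPM in untreated samples, 9.35, 9.85 and 5.79 CPM in control samples and 22, 23.2 and 19.6 CPM in RVO samples, and exceeded control eyes 2.60-fold (edgeR adjusted p = 0.00922). Ddr1 had 65.3, 76.3 and 82.3 CPM in untreated samples, 195, 208 and 215 CPM in control samples and 164, 238 and 196 CPM in RVO samples. It rose 2.65-fold in RVO and 2.72-fold in control eyes, with overlapping laser groups and a log2 difference of -0.05 ± 0.13 between them (edgeR adjusted p = 0.774). As for the collagens themselves, the 17 genes of the 3 lists that passed between RVO and control eyes became 0 when any sample except RVO replicate 2 was left out, and 27 without this sample. Of all genes tested, 0 to 0.169% passed in the former fits and 36.4% without RVO replicate 2.

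**Figure D5:**
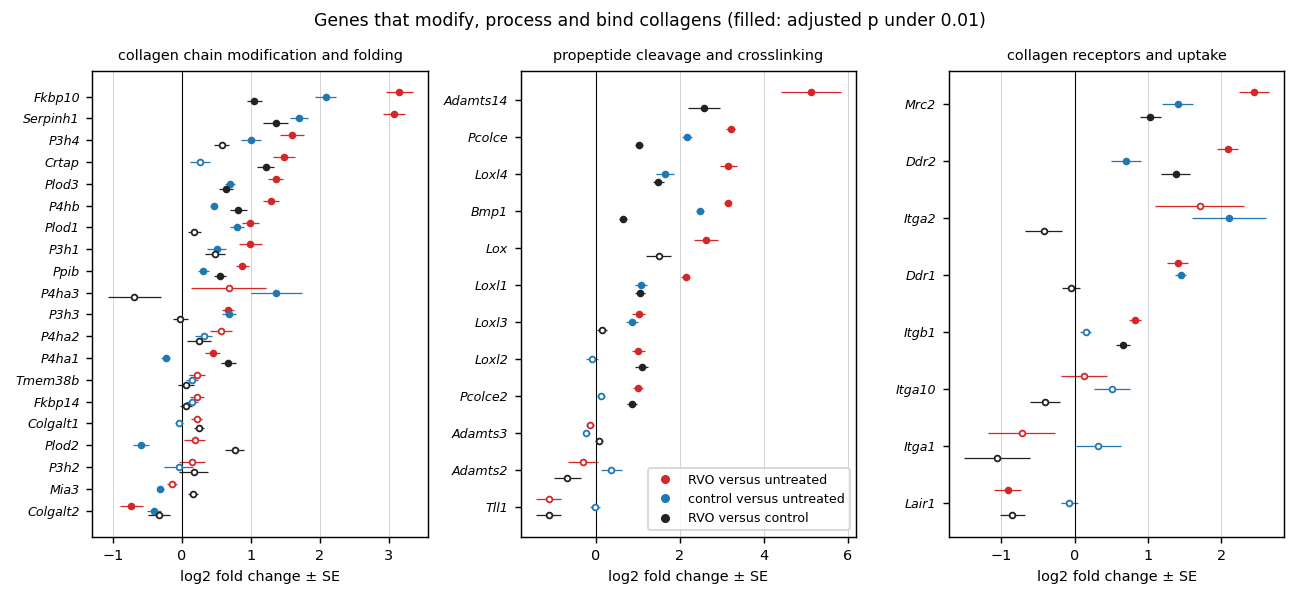
Log2 fold change with its standard error for the tested genes of 3 lists (chain modification and folding, propeptide cleavage and crosslinking, receptors and uptake) in the comparisons of RVO and untreated (red), control and untreated (blue) and RVO and control eyes (black). Filled points had an adjusted p under 0.01. Serpinh1, Fkbp10, Pcolce and Mrc2 have filled points in all 3 comparisons, and the fitted value of Adamts14 against untreated eyes depends on how genes near 0 counts are treated.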

How the data were processed

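Strand-specific libraries of poly-A RNA were sequenced by the authors as single reads of 50 bases from 9 pools of 6 retinas. The authors mapped the reads with STAR 2.5.2b to GRCm38, using the annotation Gencode vM11, and counted them per gene with featureCounts (Subread 1.5.1). The counts were deposited without normalization. Whether the counting used the strand and how reads with several matches were treated is not given in the sources used here.

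Groups were taken from the sample labels. The quasi-likelihood test of edgeR 4.0.16 (R 4.3.3) was run separately for each comparison of a pair of groups, after filterByExpr and TMM scaling. Benjamini-Hochberg adjustment covered all genes of a comparison, and an adjusted p under 0.01 was the threshold. CPM used TMM factors of all 9 samples. Exon lengths and coordinates are those of GENCODE vM21 (GRCm38), in which all 44 collagen genes were found, and promoters those of RefSeq (GRCm38.p6). Distances between samples are Euclidean over log2 CPM. Replicates differed by more than sampling noise, and each was counted as 1 sample. Whether same-numbered pools of RVO and control eyes came from the same mice is not stated, so p-values measure the spread between pools.

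The collagen genes, the 3 lists of partner genes, the marker lists and the tests were chosen with earlier results of these data known. Values of each sample are given for the 8 largest rises and falls among genes that passed in each comparison, for the 5 collagen genes with the highest level and for the main chains of vessel basement membranes and of types I and III, and of partner genes for the 3 largest changes per list, Serpinh1, Lox and P4ha1. Ratios of chains were added after the values were seen. Alternatives were other scalings and filters, DESeq2 1.42.0, the replicate number as a block, 1 fit with all 9 samples, a threshold of 0.05 and each sample left out in turn. On simulated counts of 16380 genes for the comparison of RVO and untreated eyes, 192 of them changed, the test found 60.8% of 2-fold and 92.6% of 4-fold changes, with 1 false call. In the data, far more genes passed (52.1%) and RVO replicate 2 stood apart, which the simulation did not include. Its rates therefore need not hold for the data, and the comparison of RVO and control eyes was not simulated. Lens, rod, Mueller cell, astrocyte and macrophage markers were used to describe the samples.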

Additional observations from a re-analysis of the deposited data

How the results depend on the processing

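Collagen genes lower in RVO than in untreated eyes were 5, and 2 when libraries were scaled by total counts only, 10 at an adjusted p under 0.05 and 3 to 11 when 1 sample was left out (3 without RVO replicate 3 or untreated replicate 1, 11 without RVO replicate 2). Of all genes tested, 52.1% passed in either direction, and 53.2% with scaling by total counts only. This share was 66.9% at 0.05 and 35.1 to 64.4% when 1 sample was left out. Between RVO and control eyes, the 2 genes that were higher became 6 without a filter, 6 with DESeq2's Wald test, 6 in a fit of all 9 samples, 9 at an adjusted p under 0.05 and 0 to 4 when 1 sample was left out. The 0 that were lower became 1 with scaling by total counts only, 11 without a filter, 10 with DESeq2, 11 in the fit of all 9 samples, 14 at an adjusted p under 0.05 and 0 to 17 when 1 sample was left out. The 17 partner genes that passed in this comparison became 0 to 27. Over all genes tested, the share that passed between RVO and control eyes also moved. It was 3.34% in the main fit, 5.29% with scaling by total counts only and 11.1% without a filter. With DESeq2 it was 23.8%, in the fit of all 9 samples 22.5% and at an adjusted p under 0.05 34.6%. When 1 sample was left out, it was 0 to 36.4%. Scaling by total counts only raised the all-gene median of log2 fold changes from 0.01 to 0.22 in RVO and from 0.01 to 0.19 in control against untreated eyes. Against untreated eyes, it moved the class sums in RVO to 1.64-fold (fibrillar), 3.25-fold (basement membrane), 1.33-fold (other) and 1.80-fold (all), and in control eyes to 1.80-fold (fibrillar), 1.49-fold (other) and 1.67-fold (all). The fibrillar sum in RVO relative to control eyes, 0.882, was 0.835 to 0.910 when 1 sample was left out. The counts of collagen genes higher in RVO (18) and higher or lower in control (19 and 2) than in untreated eyes stayed within 1.5 times under every alternative. No fold change of a collagen gene that had passed turned its sign.

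The replicate number as a block left 18 genes higher and 6 lower in RVO and 21 higher and 2 lower in control than in untreated eyes, 0 in either direction and 0 partner genes between RVO and control eyes (26 collagen genes at an unadjusted p under 0.05). With this block, 50.2% of all genes passed in RVO and 52.3% in control against untreated eyes, in either direction. Between RVO and control eyes, 0 of all 16874 genes passed, and 7227 had an unadjusted p under 0.05. Deviations of same-numbered RVO and control samples from their group means had correlations of -0.07, -0.15 and 0.097 over 13407 genes (replicates 1 to 3). Not every sample correlated best with its own number. With 3 samples per group, of which RVO replicate 2 stood apart, these values cannot show whether same-numbered pools came from the same mice. The lower depth of untreated samples limits the precision of genes below about 1 CPM, such as Col6a3 and Col13a1. Where a fit left a group with 2 samples, the test had fewer residual degrees of freedom.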

Other observations

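Markers of glial, immune and retinal cells were also summed. The 6 Mueller cell markers had 3713 to 3977 CPM in untreated, 2069 to 2711 CPM in control and 1219 to 1756 CPM in RVO samples. The 4 astrocyte markers had 42.6 to 46.0, 286 to 465 and 255 to 373 CPM, and the 6 monocyte and macrophage markers 39.5 to 57.9, 64.7 to 77.4 and 110.1 to 124.9 CPM, respectively. Most of the astrocyte sum came from Gfap, with means of 20.6, 296 and 216 CPM, and from Aldh1l1, with 13.3, 70.45 and 105 CPM. Means of S100b were 9.30, 8.48 and 4.90 CPM and those of Pax2 0.702, 1.04 and 1.19 CPM. The astrocyte sum thus did not reflect all of its markers. In RVO against untreated eyes, 4 Mueller cell markers were lower, 2 astrocyte markers were higher, and 3 macrophage markers were higher and 1 lower. At an adjusted p under 0.05, 1 astrocyte marker was also lower in RVO, while 66.9% of all genes passed in either direction. In control against untreated eyes, 1 Mueller cell marker was higher and 4 were lower, 2 astrocyte markers were higher, and 3 macrophage markers were higher and 1 lower. In RVO against control eyes, 2 macrophage markers were higher and 2 rod markers lower. Of the rod markers, all 6 were lower in RVO and 4 were lower in control than in untreated eyes (edgeR, Benjamini-Hochberg adjusted p under 0.01). Over all genes tested against untreated eyes, 27.4% were higher and 24.6% lower in RVO, and 27.2% higher and 25.2% lower in control eyes. In RVO against control eyes, 2.70% of all genes were higher and 0.634% lower. Of 8 lens markers, 3 of 6 tested were higher in RVO and 7 of 7 were higher in control than in untreated eyes, and Mip and Lim2 had no counts in the untreated samples.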
